A study of Mus musculus with 24 samples.

Results

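Expression of 10 heat shock and chaperone genes was examined in mouse adipose tissue after partial nephrectomy, with and without the peptide NaKtide. The genes were given as a list of symbols (Hspa1a, Hspa1b, Hspa8, Hsp90aa1, Hsp90ab1, Hspb1, Hspd1, Hspe1, Dnajb1 and Hsph1). Each symbol was matched to 1 row of the count table through the mouse GRCm38 annotation. The rule itself used no measured values. The list, like the chaperone and marker lists below, was nevertheless chosen with earlier results of these data known. The members are 10 of the 54232 genes listed. All 10 of them passed the filter on low counts that left 26116 genes for testing.

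RNA was sequenced from adipose tissue of 24 C57BL6 mice, with 1 library per mouse and 6 mice in each of 4 groups, and the series gives their age as 10 weeks. In partial nephrectomy (PNx) the right kidney was removed and most of the left was tied off, which leaves the animal in renal failure, and the other mice had a sham operation. Every mouse, controls included, received an intraperitoneal lentivirus with the adiponectin promoter, which works in adipocytes. The promoter drove GFP (green fluorescent protein) alone or NaKtide linked to GFP. NaKtide is a peptide derived from the Na,K-ATPase intended to inhibit Src kinase signalling. Sham mice formed the Control group when given GFP alone and the NaKtide group when given the peptide. Operated mice likewise formed the PNx and PNx+NaKtide groups. The promoter was meant to limit the transgene to adipocytes, whereas the libraries were made from whole tissue. Where the transgene was expressed was not tested here.

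Heat shock proteins are molecular chaperones that keep other proteins folded. When unfolded proteins accumulate, heat shock factor 1 (HSF1) binds short inverted repeats, the heat shock elements, in the promoters of their genes and raises transcription within minutes. Some chaperones (Hspa1a, Hspa1b, Dnajb1, Hsph1, Hspb1 and Hsp90aa1) are strongly stress-inducible in most tissues, whereas Hspa8 and Hsp90ab1 serve as the constitutive counterparts in the cytosol, and Hspd1 with Hspe1 forms the folding chamber of mitochondria.

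The promoters are shown because a shared binding element is the feature by which these genes are usually grouped. RefSeq promoter windows (GRCm38.p6) were matched for 7 of the 10 genes, in 10 windows, with no entry for Hspa8, Hsp90aa1 or Hsp90ab1. The 250 bases before each start were searched on both strands for the core of a heat shock element, written GAANNTTC or TTCNNGAA, each of which reads the same on both strands, and overlapping matches were counted. This core was present in 4218 of 32851 windows of all genes (12.8%). The 120 bases before the starts of Hspa1a (chr17:34972157-34972276, minus strand), Hspa1b (chr17:34959239-34959358, minus strand) and Hspb1 (chr5:135887799-135887918, plus strand), and 30 bases around the matches of Hspe1 (chr1:55088053-55088082, plus strand, within the Hspd1 gene model) and Hsph1 (chr5:149636351-149636380, minus strand, reaching into the annotated gene, which ends at 149636376), read 5′ to 3′ with the fixed letters of the core in capitals:
Hspa1a: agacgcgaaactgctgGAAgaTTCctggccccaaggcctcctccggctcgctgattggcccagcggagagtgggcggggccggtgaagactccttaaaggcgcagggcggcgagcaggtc
Hspa1b: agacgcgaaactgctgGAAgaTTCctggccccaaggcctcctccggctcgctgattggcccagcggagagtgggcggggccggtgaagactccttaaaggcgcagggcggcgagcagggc
Hspb1: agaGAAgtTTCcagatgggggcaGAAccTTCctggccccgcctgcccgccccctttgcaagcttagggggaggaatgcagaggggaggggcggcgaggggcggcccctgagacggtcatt
Hspe1: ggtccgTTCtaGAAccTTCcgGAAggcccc
Hsph1: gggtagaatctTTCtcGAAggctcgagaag
The Hspa1a and Hspa1b stretches were the same at 119 of 120 bases, with 1 core starting 104 bases upstream in each. Hspb1 had 2 cores, at 117 and 97 bases, and Hspe1 had 3 overlapping cores, at 89, 84 and 79 bases. The 3 cores of Hspe1 also fell in 1 of the 2 windows of Hspd1, at 144, 139 and 134 bases, since both genes start from the same stretch of chromosome 1 in opposite directions. Hsph1 had 1 core, 33 or 54 bases upstream by its 2 annotated starts, and no match was found in the 2 windows of Dnajb1. A match is a run of letters and not a measured binding site.

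Before the levels are given, 2 properties of the counts bear on what a member's value stands for. The libraries were prepared with a stranded kit, but the sources used here do not state which strand setting the counting used. The 9103 genes whose exons overlap those of an opposite-strand gene (16.8% of those matched) held 79.9% of all counts, and mt-Nd6, the mitochondrial mRNA encoded on the strand opposite to the other 12, had 403137 counts per kb against 5968 for those 12 together. Gene models on the strand opposite to a member, or to a copy of it, showed the same imbalance. Gm20481, whose 564 exon bases all lie opposite Hspa1a exons, had 28236 counts in total against 2436 for Hspa1a, a ratio of 11.6. Gm26825, a lincRNA that is not at the Hspa8 locus but matches the reverse complement of 34.0% of the 50-base stretches of Hspa8, had 429112 counts against 4180 for Hspa8, a ratio of 103. Gm9817, which matches the reverse complement of 38.3% of the stretches of Hspb1, had 10431 counts against 360, a ratio of 29.0. Gm26825 and Gm9817 were chosen after their values were seen. Whether a member's counts are reads of its own mRNA strand was not tested, so the values below are counts assigned to the gene and may not be levels of its mRNA.

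The second property is shared sequence. Of the 50-base stretches in the annotated transcripts, the read length of the study, 66.3% in Hspa1a and 62.3% in Hspa1b also occur in another gene, mostly in each other. The share was 50.1% in Hspb1, 47.5% in Hsp90aa1, 42.1% in Hspd1, 39.4% in Hspa8 and 22.8% in Hspe1, mostly with processed pseudogenes. Their levels are therefore uncertain where reads could be split. It was 3.44% in Hsp90ab1, 0.412% in Dnajb1 and 0 in Hsph1. The exons of Hspd1 and Hspe1 share 112 bases on opposite strands.

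Libraries held 679250 to 2979505 counts, and a count of 0 allows up to 3 counts, or 0.739 to 5.91 CPM (counts after scaling each library by its TMM-adjusted size to a common total), a limit for counting error only. Member totals over the 24 libraries ranged from 360 for Hspb1 to 7248 for Hsp90ab1. Some libraries stood apart. All 14 adipocyte markers had counts, and their summed level in Control was 325 to 989 CPM, whereas PNx replicate 6 reached 8668 CPM and replicate 6 of NaKtide 6251 CPM. A list of 15 epididymis genes summed to more than the adipocyte list in 21 of the 24 libraries. The epididymis sum was 782 to 2609 CPM in Control and 1143 to 2553 CPM in PNx+NaKtide. In PNx replicates 1 to 6 it was 21.7, 262, 728, 1469, 2390 and 146 CPM, and in NaKtide replicate 6 it was 37.5 CPM. The highest sums of 13 sperm genes were those of PNx replicates 1, 2 and 3, at 1618, 1452 and 1931 CPM, against 520 to 940 in Control, 434 to 1154 in NaKtide, 393 to 618 in the other PNx libraries and 373 to 1388 in PNx+NaKtide. Their sums of 15 immediate early genes were 72.9, 115 and 91.3 CPM, against 261 to 298 in Control. Every gene of these lists had counts in at least 1 library, and the part of tissue composition in the member values was not tested. In whole tissue, fewer cells of a type and less RNA per cell cannot be told apart.

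On the deposited FPKM scale, which puts assigned counts per length, Hsp90ab1 had the highest median over the 24 libraries, 57.6 FPKM (range 20.7 to 95.0). Given the strand and shared sequence, this order may not be that of the mRNA levels. Hspa1a (18.9), Hspa8 (18.7), Hspa1b (18.1) and Hsp90aa1 (12.2) followed, then Hspb1 (6.53), Hspd1 (5.05) and Hspe1 (4.66), and Dnajb1 (2.21) and Hsph1 (0.784) were lowest. Ranges of neighbours in this order overlapped, and Hsp90aa1 alone ran from 3.81 to 101 FPKM, past the highest value of Hsp90ab1. On the CPM scale the highest library was 7.36 times the lowest for Hspa1a, 7.95 times for Hsp90ab1, 17.4 times for Hsp90aa1 and 20.7 times for Hspa8. The lowest library of Dnajb1 and of Hsph1 held 1 count, and no ratio is given for them.

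**Figure D1:**
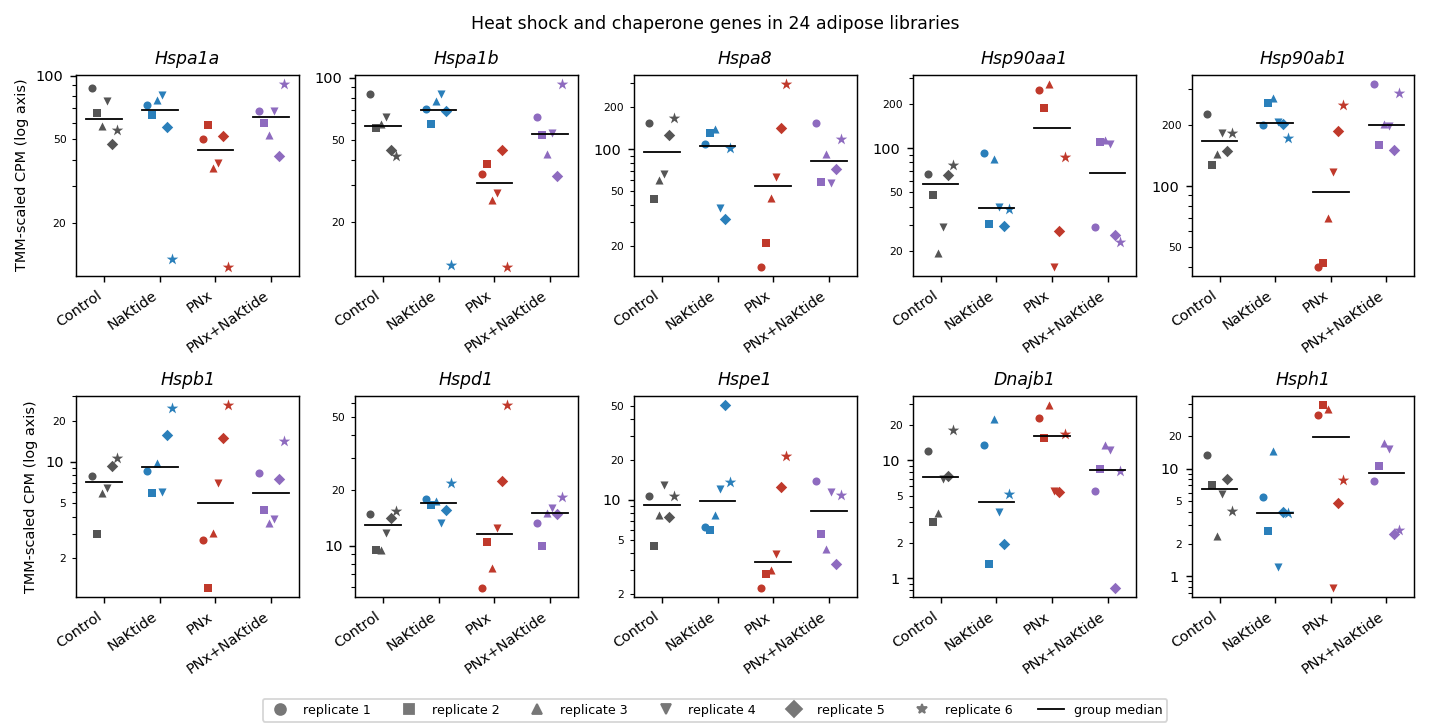
Levels of the 10 genes in each of the 24 libraries, as CPM after TMM scaling (trimmed mean of M values; log axis, 1 panel per gene), with 6 libraries per group, a marker shape per replicate number and a line at the group median. PNx replicates 1, 2 and 3 are the 3 highest libraries for Hsp90aa1 and Hsph1 and the 3 lowest for Hsp90ab1 and Hspe1. They are also the 3 highest for 16.4% and the 3 lowest for 7.95% of all genes tested.

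Hsp90aa1 and Hsp90ab1 encode the inducible and the constitutive form of cytosolic HSP90, which holds kinases and steroid receptors in an activatable state. Hsp90aa1 had 19.5, 56.7 and 76.3 CPM (lowest, median and highest) in Control, 29.5, 39.4 and 92.3 in NaKtide, 15.7, 137.3 and 273 in PNx, and 23.1, 68.0 and 114 in PNx+NaKtide. The PNx group covered the whole range, since PNx replicates 1, 2 and 3 had 246, 188 and 273 CPM, above every other library, while PNx replicate 4 had 15.7 CPM, the lowest of all 24. Hsp90ab1 had 127, 166 and 227 CPM in Control, 172, 205 and 271 in NaKtide, 40.2, 93.8 and 250 in PNx, and 151, 200 and 319 in PNx+NaKtide. Here PNx replicates 1, 2 and 3 were the lowest libraries, with 40.2, 42.0 and 69.9 CPM, against 118 CPM in the next lowest, PNx replicate 4. The 2 paralogs thus stood in opposite order in these 3 libraries. Of all genes tested, 16.4% had their 3 highest values in these libraries and 7.95% their 3 lowest.

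The share of Hsp90aa1 in the counts of the pair does not depend on scaling between libraries. It was 86.0% in PNx replicate 1, 81.8% in replicate 2 and 79.6% in replicate 3. The other PNx libraries had 11.8%, 12.8% and 25.7%, within the range of 12.0% to 30.5% in Control except for replicate 4, which was just under it. PNx+NaKtide libraries had between 7.42% and 40.9%, and NaKtide libraries between 10.6% and 31.6%. No library had a share between 40.9% and 79.6%.

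**Figure D2:**
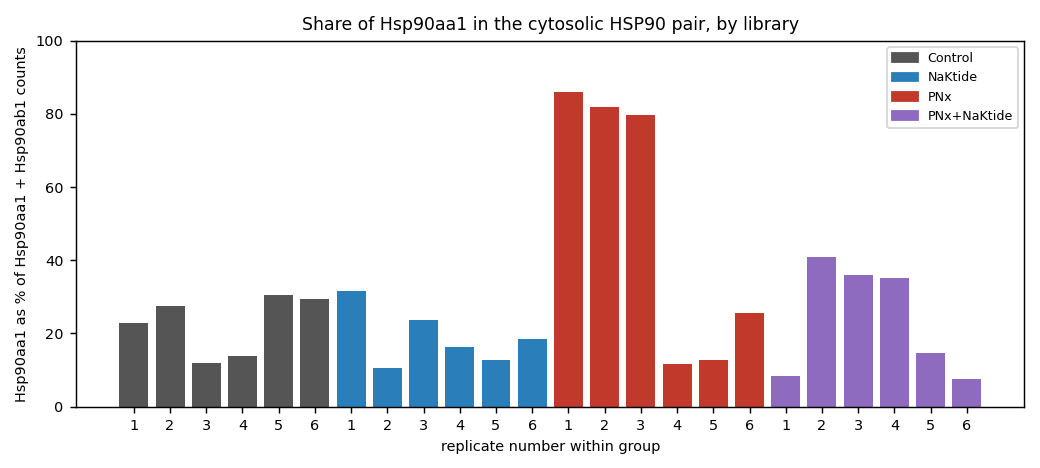
Counts of Hsp90aa1 as a percentage of the counts of Hsp90aa1 and Hsp90ab1 together in each of the 24 libraries (bars, 1 library each, by replicate number, coloured by group). PNx replicates 1, 2 and 3 reach 79.6% to 86.0%, and every other library is at 40.9% or lower.

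Hsph1, an HSP110 protein that exchanges nucleotide on HSP70, followed the order of Hsp90aa1 at a lower level. It had 2.37, 6.42 and 13.5 CPM in Control, 1.21, 3.91 and 14.7 in NaKtide, 0.785, 19.6 and 39.2 in PNx, and 2.50, 9.17 and 17.1 in PNx+NaKtide. PNx replicates 1, 2 and 3 had 31.3, 39.2 and 35.6 CPM and no other library exceeded 17.1, while PNx replicate 4 again had the lowest value of all. Dnajb1, the HSP40 partner that delivers unfolded clients to HSP70, had 3.00, 7.20 and 18.1 CPM in Control, 1.33, 4.40 and 22.3 in NaKtide, 5.35, 16.0 and 29.5 in PNx, and 0.832, 8.25 and 13.6 in PNx+NaKtide. PNx replicates 1, 2 and 3 had 22.9, 15.3 and 29.5 CPM, and Dnajb1 overlapped between all groups. Dnajb1 and Hsph1 each had 3 counts or fewer in 4 of the 24 libraries, so their low values were measured with little precision.

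Hspa1a and Hspa1b, neighbouring genes on chromosome 17 that encode nearly the same inducible HSP70, were listed at similar levels in each library, and Hspa1a made up 45.3% to 60.7% of the counts of the pair. Hspa1a had 47.5, 62.3 and 87.7 CPM in Control, 13.6, 69.0 and 81.1 in NaKtide, 12.5, 44.2 and 58.6 in PNx, and 41.6, 63.9 and 91.6 in PNx+NaKtide. Hspa1b had 41.5, 58.4 and 83.1 CPM in Control, 12.3, 69.8 and 83.5 in NaKtide, 12.1, 30.7 and 44.5 in PNx, and 33.3, 53.3 and 93.7 in PNx+NaKtide. The Control and PNx ranges of Hspa1b overlapped only because Control replicates 5 and 6, at 44.4 and 41.5 CPM, lay below PNx replicate 5, at 44.5. PNx replicate 6 and NaKtide replicate 6, the libraries with the highest adipocyte sums, were the lowest of all 24 for both genes. Gm20481, on the other strand of Hspa1a, had 624 to 1469 CPM in Control but 80.8 CPM in PNx replicate 6, and replicates 1, 2 and 3 of that group had 37.7, 168 and 107 CPM. Its counts per count of Hspa1a were 10.2 to 20.3 in Control, 0.754, 2.88 and 2.94 in PNx replicates 1, 2 and 3, and 30.5 in PNx replicate 4. The gene pair on opposite strands therefore did not keep a fixed ratio.

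Hspa8, the constitutive HSP70 of the cytosol, had 43.5, 96.2 and 168 CPM in Control, 31.5, 106 and 140 in NaKtide, 14.3, 54.3 and 296 in PNx, and 57.6, 82.6 and 156 in PNx+NaKtide. Both the lowest and the highest library of all were in the PNx group, replicate 1 at 14.3 CPM and replicate 6 at 296 CPM. Gm26825, which shares reverse-complement sequence with it, had 1553, 3626 and 2380 CPM in PNx replicates 1, 2 and 3 against 9831 to 16273 CPM in Control. The small nucleolar RNAs Snord14c, Snord14d and Snord14e, which lie inside Hspa8 on the same strand, had 0 counts.

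Hspb1, a small heat shock protein that binds unfolding proteins without ATP, had 3.00, 7.15 and 10.7 CPM in Control, 5.97, 9.17 and 24.6 in NaKtide, 1.21, 5.05 and 26.0 in PNx, and 3.57, 5.97 and 14.3 in PNx+NaKtide. Its highest libraries were PNx replicate 6 and NaKtide replicate 6. Hspd1, the HSP60 ring of mitochondria, had 9.47, 12.9 and 15.4 CPM in Control, 13.3, 17.0 and 22.0 in NaKtide, 5.91, 11.5 and 58.5 in PNx, and 10.0, 15.0 and 18.3 in PNx+NaKtide. PNx replicate 6, with 58.5 CPM, was far above the next PNx library at 22.6. Hspe1, the HSP10 lid of that ring, had 4.50, 9.18 and 12.8 CPM in Control, 5.97, 9.89 and 51.2 in NaKtide, 2.22, 3.48 and 21.1 in PNx, and 3.33, 8.22 and 13.8 in PNx+NaKtide. Its lowest libraries were PNx replicates 1, 2 and 3, at 2.22, 2.83 and 3.03 CPM, from 9, 7 and 12 counts. All groups overlapped for these 3 genes.

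The first comparison asked how renal failure alters the adipose transcriptome (PNx against Control, both with GFP alone). None of the 10 genes passed an adjusted p under 0.1 in edgeR, where 20 of 26116 genes did (0.0766%), all of them lower in PNx. At an unadjusted p under 0.05 there were 3 members, 2 higher and 1 lower, where 25.4% of all genes tested passed, 18.5% higher and 6.88% lower. Hsp90aa1 differed by 1.46 ± 0.58 on the log2 scale (SE, adjusted p = 0.149, edgeR), Hsph1 by 1.55 ± 0.66 (adjusted p = 0.160) and Hspa1b by -0.95 ± 0.38 (adjusted p = 0.152). The median log2 fold change was 0.13 over the 10 members and 0.36 over all genes tested, so a value near 0.36 is where a typical gene lay. Dnajb1 was at 0.91 ± 0.60 and Hspd1 at 0.64 ± 0.43, with adjusted p of 0.316 and 0.315 in edgeR. Hspa1a was at -0.66 ± 0.37 (adjusted p = 0.248) and Hsp90ab1 at -0.52 ± 0.37 (adjusted p = 0.347). Hspb1 (0.34 ± 0.57), Hspe1 (-0.24 ± 0.58) and Hspa8 (-0.09 ± 0.55) had the widest relative errors, and the 95% interval of Hspa8 reached from -1.17 to 1.00.

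These calls turned on the scaling, the tool and single libraries. With DESeq2 size factors in edgeR, 4 members passed (Hsp90aa1 at 2.18, Hsph1 at 2.27, Dnajb1 at 1.53 and Hspd1 at 0.88 on the log2 scale) and so did 8696 of 26116 genes (33.3%), and the same 4 members passed in DESeq2, where 7764 genes did (29.7%). The median over all genes was then 0.76 and 0.79. With library size scaling 2 passed, Hsp90aa1 and Hsph1, where 4102 genes did (15.7%). With limma voom and sample weights, which called 16654 genes (63.8%), all members but Hspd1 passed (9 of 10). In that fit Hsp90aa1 (2.06), Hsph1 (2.09) and Dnajb1 (1.53) were higher in PNx on the log2 scale and the other 6 were lower, Hspb1 (-1.18) having changed sign. Without PNx replicate 4, edgeR called 7213 genes (27.6%) and 2 members (Hsp90aa1, adjusted p = 0.056, and Hsph1, adjusted p = 0.060). Without PNx replicate 5 it called 5986 genes (22.9%) and 3 members, Hspa1b (adjusted p = 0.081) with the other two, and without PNx replicate 6 it called 3782 genes (14.5%) and no member. No member was called without any other single library, where 129 and 164 genes passed without Control replicates 5 and 6 and 0 without each of the rest.

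**Figure D3:**
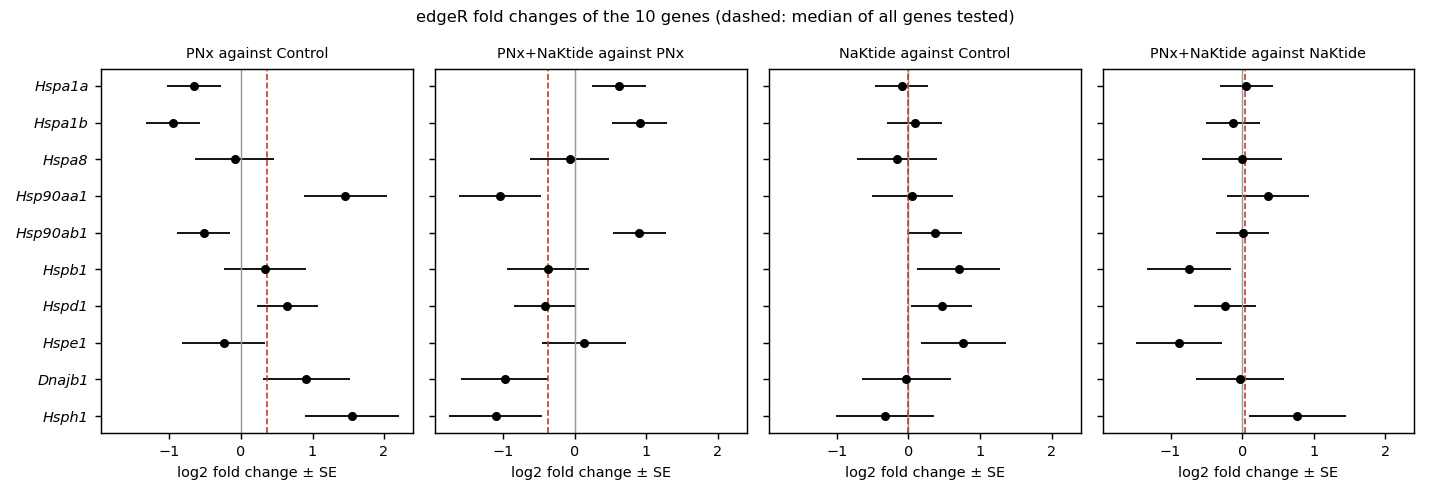
Log2 fold changes of the 10 genes in 4 comparisons (points, edgeR, bars 1 SE either side, 6 libraries per group), with a solid line at 0 and a dashed line at the median of all genes tested. Hsp90aa1 and Hsph1 lie at 1.46 and 1.55 in PNx against Control and at -1.04 and -1.10 in PNx+NaKtide against PNx, and no value passed the adjusted p.

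The libraries that stood apart by the sperm and immediate early lists, PNx replicates 1, 2 and 3, were left out together, a choice made after seeing the data. The log2 fold change of Hsp90aa1 was then -0.22 (adjusted p = 0.908, edgeR) and that of Hsph1 -0.53 (adjusted p = 0.777). Since these libraries were the 3 highest of all for both genes, a fall in both values was set by the choice. Only PNx replicates 4, 5 and 6 remained in that group. Hsp90ab1 moved to 0.13, Hspe1 to 0.51 and Hspa8 to 0.70, and Dnajb1 to 0.14. The HSP70 pair kept its sign, with Hspa1a at -0.94 and Hspa1b at -1.07 (adjusted p = 0.458 and 0.430, edgeR). Hspd1 and Hspb1 stood at 1.33 and 1.17, and PNx replicate 6 was the highest library for both. Without PNx replicate 6 instead, Hspd1 was at -0.10, Hspb1 at -0.37, Hspa8 at -0.85 and Hsp90ab1 at -0.89 (adjusted p = 0.109, edgeR), while Hsp90aa1 and Hsph1 stood at 1.56 and 1.72 both just over the threshold (adjusted p = 0.101 for Hsp90aa1, edgeR).

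**Figure D4:**
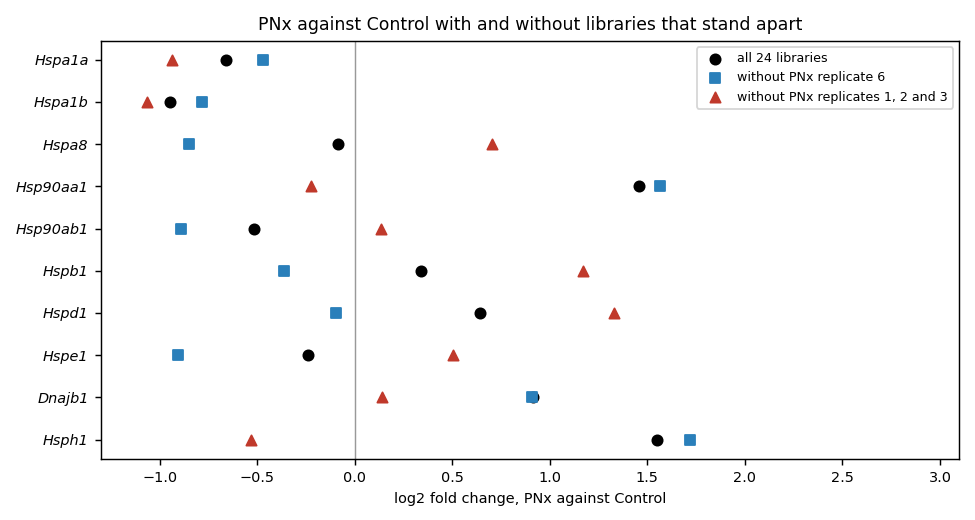
Log2 fold changes of the 10 genes in PNx against Control (edgeR) with all 24 libraries, without PNx replicate 6 and without PNx replicates 1, 2 and 3. Hsp90aa1 and Hsph1 go from 1.46 and 1.55 to -0.22 and -0.53 without replicates 1, 2 and 3, and Hspd1 goes from 0.64 to -0.10 without replicate 6.

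The next comparison asked what NaKtide did after nephrectomy (PNx+NaKtide against PNx), and it shares the 6 PNx libraries with the first, so opposite signs in both are no independent result. No gene passed the adjusted p in edgeR (0 of 26116, a share of 0), and 3309 passed at an unadjusted p under 0.05. Of the members 2 passed at an unadjusted p under 0.05, both higher, where 12.7% of all genes did, 4.07% higher and 8.6% lower. Hsp90ab1 was at 0.90 ± 0.37 on the log2 scale (adjusted p = 0.357, edgeR) and Hspa1b at 0.91 ± 0.38 (adjusted p = 0.366), against a median of -0.37 over all genes. Hspa1a was at 0.62 ± 0.37, Hsph1 at -1.10 ± 0.65, Hsp90aa1 at -1.04 ± 0.57 and Dnajb1 at -0.98 ± 0.61, with adjusted p of 0.423 to 0.448 in edgeR. The other 4 lay between -0.42 and 0.13. DESeq2 called 2 members (Hsp90aa1, adjusted p = 0.097, and Hsp90ab1, adjusted p = 0.093) among 1514 genes (5.8%), and voom called 8 members among 11479 genes (44%). Without PNx replicates 1, 2 and 3 the values were 0.64 for Hsp90aa1, 0.98 for Hsph1 and 0.25 for Hsp90ab1, and Hspa1b was at 1.02 (adjusted p = 0.324, edgeR).

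In NaKtide against Control, which asked for an effect of the peptide without renal failure, no member passed at an unadjusted p under 0.05, where 3.95% of all genes did and none passed the adjusted p. Hspe1 had the largest value, 0.77 ± 0.59 on the log2 scale, and NaKtide replicate 5 alone had 51.2 CPM against 13.6 or less in the other NaKtide libraries. Without each library in turn the value of Hspe1 ran from 0.014 to 0.95. Hspb1 was at 0.70 ± 0.58, Hspd1 at 0.46 ± 0.43 and Hsp90ab1 at 0.37 ± 0.37, and the other 6 lay between -0.32 and 0.08. DESeq2 and voom also called no member here.

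Nephrectomy under NaKtide (PNx+NaKtide against NaKtide) likewise gave no member at an unadjusted p under 0.05, where 4.09% of all genes passed. Hspe1 was at -0.88 ± 0.60, Hspb1 at -0.74 ± 0.59, Hsph1 at 0.77 ± 0.68 and Hsp90aa1 at 0.36 ± 0.57 on the log2 scale, and the HSP70 members and Hsp90ab1 lay between -0.13 and 0.06. DESeq2 and voom called no member in this comparison either. Whether the nephrectomy difference itself depended on NaKtide was tested as an interaction, and again 0 members passed at an unadjusted p under 0.05, where 9.27% of all genes did. The interaction was -1.09 ± 0.81 for Hsp90aa1, -1.08 ± 0.82 for Hspb1 and 0.82 ± 0.54 for Hspa1b, and the smallest adjusted p of a member was 0.619 (edgeR). With voom Hsp90ab1 passed, at 1.27 (adjusted p = 0.019), as did 6662 genes in all (25.5%). A nephrectomy difference of any member is thus not shown to differ between the 2 transductions in the edgeR fit.

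The wider chaperone network was read from 7 lists of 75 genes that exclude the 10 members. Of these, 74 were tested and none passed the adjusted p in any comparison in edgeR. In PNx against Control 9 genes (12.2%) were higher and 4 (5.41%) lower at an unadjusted p under 0.05, against 18.5% and 6.88% of all genes. In PNx+NaKtide against PNx there were 4 higher and 2 lower (5.41% and 2.70%), against 4.07% and 8.6%.

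The list with the lowest median was that of 12 endoplasmic reticulum chaperones at -0.41 in PNx against Control, where no gene passed at an unadjusted p under 0.05. Under DESeq2 size factors and library size scaling its median was -0.09 and -0.16, while the median of all genes was 0.76 and 0.70. The other 6 lists had medians from 0.18 (mitochondrial chaperones) to 0.52 (25 genes of the HSP70 family and its co-chaperones), around the 0.36 of all genes. HSP90 co-chaperones had a median of 0.18, the TRiC chaperonin 0.44, small heat shock proteins 0.37 and the 4 HSF regulators 0.34.

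Hsf1, the gene of the factor described above, was at -0.07 ± 0.45 on the log2 scale in PNx against Control (adjusted p = 0.936, edgeR). The genes that follow each had the largest absolute log2 fold change of their list, and all were higher in PNx. The 4 list genes that were lower at an unadjusted p under 0.05 (edgeR) had values from -2.10 to -0.98, and none was the largest of its list. Hsf2, a heat shock factor active in development and gametogenesis, had 0.583, 0.951 and 2.50 CPM in Control and 0.594, 4.72 and 7.67 in PNx. Its log2 difference was 1.86 ± 0.53 (adjusted p = 0.128, edgeR). The Control median of Hsf2 lay under the limit of 3 counts, which was 1.39 to 2.01 CPM in Control. Hspa12a, a distant HSP70 relative, was at 2.65 ± 0.92 (adjusted p = 0.136). Cct6b, the testis form of a TRiC subunit, was at 2.36 ± 1.04 (adjusted p = 0.171). Clpx, the unfoldase of a mitochondrial protease, was at 1.40 ± 0.55 (adjusted p = 0.149). Ppid, an HSP90 co-chaperone, and Dnajb9, an endoplasmic reticulum HSP40, were at 1.26 ± 0.66 and 1.05 ± 0.56 (adjusted p = 0.221 and 0.228, edgeR). Dnajb9 went against its list, where every other gene had a negative value and the median was -0.41. Hspb11 was at 2.63 ± 0.97 (adjusted p = 0.141, edgeR) from few counts. It stayed at or under 0.592 CPM in Control, below the limit of 3 counts, and reached 2.70 CPM in NaKtide, 2.71 in PNx and 3.84 in PNx+NaKtide.

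In PNx replicates 1, 2 and 3, Hsf2 had 5.67, 7.67 and 5.30 CPM, and no other library had more than 4.15. These 3 libraries were the 3 highest for 12 of the 74 chaperone genes (16.2%) and the 3 lowest for 7 (9.46%), against 16.4% and 7.95% of all genes tested. The genes named next were chosen after their values were seen. Some of the 12 are known from male germ cells, such as Hspa2, an HSP70 of meiotic cells, with 105, 78.7 and 133 CPM in these libraries and at most 65.2 CPM in the others. Others are co-chaperones used in many tissues, such as Bag5, a partner of HSP70, with 105, 115 and 114 CPM against at most 66.8, and Dnajb6, an HSP40, with 89.2, 69.9 and 75.7 CPM against at most 37.4. Hspa1l, the HSP70 of spermatids, was not among the 12, with 95.4, 78.3 and 114 CPM against up to 203 elsewhere, and its exons, like those of Dnajb6, overlap an opposite-strand gene. PNx replicates 1, 2 and 3 are the libraries in which the sums of the sperm list were highest and in which Hsp90aa1 and Hsph1 were highest. Within PNx+NaKtide, replicates 2, 3 and 4 had sperm sums of 1119, 1345 and 1388 CPM, against at most 396 CPM in replicates 1, 5 and 6. Hsp90aa1 had 110, 114 and 107 CPM in replicates 2, 3 and 4 of that group, against at most 29.3 CPM in its other replicates. A list of 15 testis germ cell genes summed there to 157, 187 and 190 CPM, against at most 87.6 CPM in the other replicates. In PNx replicates 1, 2 and 3 this list summed to 391, 313 and 384 CPM. Its sums were higher in NaKtide replicate 6 (656 CPM) and PNx replicate 6 (430 CPM), where Hsp90aa1 had only 38.8 and 86.4 CPM. The part of germ cell RNA in the member values was not tested.

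**Figure D5:**
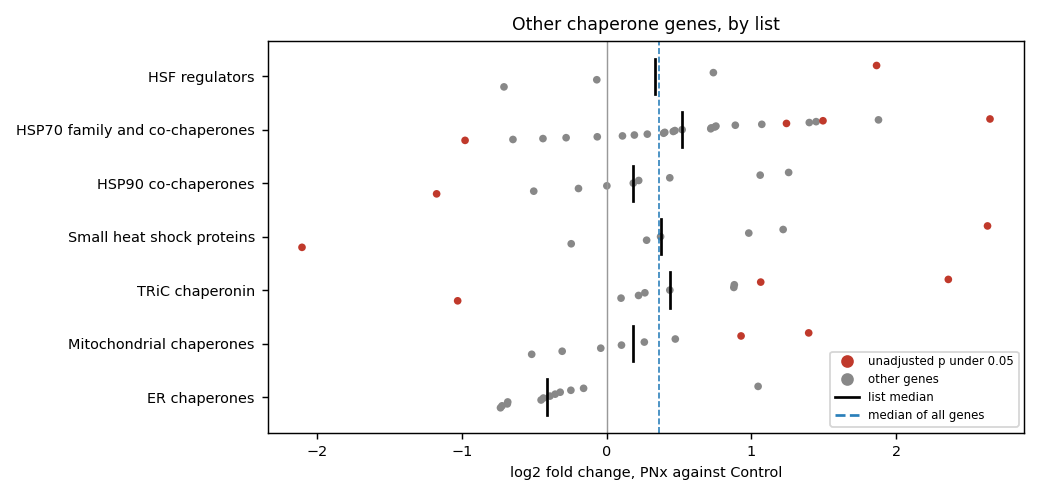
Log2 fold changes in PNx against Control (edgeR) of 74 chaperone genes outside the 10 members, by list (points, red at an unadjusted p under 0.05), with the list median (black) and the median of all genes (dashed). The list of endoplasmic reticulum chaperones has a median of -0.41 against 0.36 over all genes, and no gene passed the adjusted p.

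Across the 24 libraries the members did not follow 1 common pattern. Spearman's rho of log2 CPM, given as a description over libraries that share group, depth and composition, was 0.92 between Hspa1a and Hspa1b, 0.84 between Hsp90aa1 and Hsph1 and 0.76 between Hsp90aa1 and Dnajb1, whereas Hsp90aa1 and Hspb1 were at -0.43. Among 7756 genes with a mean of at least 10 CPM, the gene most like Hsp90aa1 was Nos3 (0.96), that of Hsph1 was Ppp2r5c (0.93) and that of Dnajb1 was Gstm5 (0.91). Hspa8 was closest to Gm15459 (0.99), the pseudogene that shares 34.6% of its 50-base stretches. Hsp90ab1 was closest to Rpl3 (0.92), Hspb1 to S100a11 (0.92), Hspe1 to Fam171a2 (0.88) and Hspd1 to Triobp (0.88).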

How the data were processed

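Stranded mRNA libraries were sequenced as paired reads of 50 bases. According to the methods of the study and the submitters' processing notes, the authors trimmed reads (Trimmomatic 0.38), aligned them to GRCm38 (HISAT2 2.1.0) and deposited raw counts per gene. The deposited FPKM values were computed by the authors from counts scaled with DESeq2 1.20.0, and were used here only to set assigned counts per length beside each other between genes. Neither the annotation release nor the strand setting of counting was stated in the sources used here. The deposited normalized table was not used.

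Gene symbols and exons came from GENCODE M21 (99.9% of identifiers matched). Genes with more than 10 counts over all libraries were tested with edgeR 4.0.16 (R 4.3.3): trimmed mean of M values (TMM) scaling, robust quasi-likelihood F-test, 1 fit of 4 group means, Benjamini-Hochberg adjusted p under 0.1. SE was taken as |log2 fold change|/√F. The biological coefficient of variation was 71.4%. The script was tested on simulated data. P-values measure the spread between mice. No per-sample column was left without a sample.

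As alternatives, scaling was changed to library size or to DESeq2 size factors, the test to DESeq2 1.42.0 or limma 3.58.1 voom with sample weights, and the threshold to 0.05. The filter was dropped, the replicate number was added as a block, only the compared groups were fitted, and each library was left out in turn.

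The members and lists were chosen with earlier results of these data known. Named were all 10 members, genes sharing exon bases with one, the gene of largest absolute fold change in PNx against Control in each chaperone list, and for each member the gene of highest Spearman likeness. Gm26825, Gm9817, Hsp25-ps1, mt-Nd6, Hsf1, Hspa2, Bag5, Dnajb6 and Hspa1l were named after their values were seen.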

Additional observations from a re-analysis of the deposited data

Results flagged for a closer look

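Of 40 sets of 6 libraries (10 members in 4 groups), 5 held a library whose gap to its nearest neighbour exceeded Dixon's critical share of the range. Chance marks about 1 in 20 sets of independent, normally distributed values. CPM values need not be normal, and Hspa1a and Hspa1b share sequence, so the count of 5 is no test against chance. In NaKtide, replicate 6 was low for Hspa1a (13.6 CPM) and Hspa1b (12.3 CPM), replicate 5 was high for Hspe1 (51.2 CPM) and replicate 3 was high for Hsph1 (14.7 CPM). In PNx, replicate 6 was high for Hspd1 (58.5 CPM). NaKtide replicate 6 also had the highest skeletal muscle sum of all libraries (6379 CPM), and NaKtide replicate 5 the lowest total (679250 counts). PNx replicate 6 had the highest erythrocyte and endothelium sums (1628 and 611 CPM). The part of these in the member values was not tested.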

How the results depend on the processing

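Of 390 member values under alternatives other than leaving out libraries, 39 changed sign, and the cause was not tested. The 390 include 50 values at the changed threshold, which come from the same fit and could not change sign. Most belong to Hspa8, Hspb1, Hspd1, Hspe1 and Dnajb1. Low counts limit Hspb1, Hspe1, Dnajb1 and Hsph1.

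Genes called in PNx against Control (20) numbered 8696 with DESeq2 size factors (7971 higher, 725 lower), 4102 with library size scaling, 7764 in DESeq2, 16654 in voom, 1 without a filter, and 0 at an adjusted p under 0.05, with compared groups only or without PNx replicates 1, 2 and 3. Without single libraries they ranged from 0 (each of Control 1 to 4 and PNx 1 to 3) to 7213, with 129 and 164 without Control 5 and 6. Members called (0) numbered 4, 2, 4 and 9 in the first 4 settings, and 0 to 3 without single libraries. In PNx+NaKtide against PNx, DESeq2 and voom called 1514 and 11479 genes with 2 and 8 members. They called 3 and 2 genes in NaKtide against Control. DESeq2 called 2 in PNx+NaKtide against NaKtide. For the interaction, DESeq2 and voom called 94 and 6662 genes, voom 1 member, and leaving out 1 library gave 0 or 1 gene.

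The replicate block gave 1 gene in PNx against Control and 2 for the interaction. Same-numbered libraries deviated with correlations from -0.59 to 0.71, so the numbers were not taken as pairs. With the block, Hspb1 was -0.090 (PNx against Control), Hspa8 0.18 (PNx+NaKtide against PNx), Hspa8 0.027 and Hsp90aa1 -0.21 (NaKtide against Control), and Hspa1b 0.0061, Hspa8 -0.11, Hsp90ab1 -0.069 and Dnajb1 0.27 (PNx+NaKtide against NaKtide).

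Other log2 fold changes that changed sign follow. PNx against Control gave Hspa8 0.10 (DESeq2 size factors and DESeq2) and 0.22 (library size), Hspe1 0.077 (library size), and Hspb1 -1.18 and Hspd1 -0.45 (voom). PNx+NaKtide against PNx gave Hspe1 -0.014 (size factors), -0.11 (library size) and -0.015 (DESeq2), and Hspa8 1.26, Hspb1 0.91 and Hspd1 0.66 (voom). NaKtide against Control gave Dnajb1 0.020 (size factors), 0.029 (library size) and 0.015 (DESeq2), and Hspa1a 0.035 and Hspa8 0.049 (voom). PNx+NaKtide against NaKtide gave Dnajb1 0.016 (size factors), 0.021 (DESeq2), 0.35 (voom) and 0.0094 (compared groups only), Hspa1b 0.0069 (library size), and Hspa1a -0.11, Hspa8 -0.19 and Hsp90ab1 -0.16 (voom). The interaction gave Hspa8 -0.064 (size factors), -0.18 (library size) and -0.066 (DESeq2), and Hspb1 0.53, Hspd1 0.19 and Hspe1 1.14 (voom).

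Without PNx replicates 1, 2 and 3, chosen after seeing the data, PNx against Control gave Hspa8 0.70, Hsp90aa1 -0.22, Hsp90ab1 0.13, Hspe1 0.51 and Hsph1 -0.53. PNx+NaKtide against PNx gave Hsp90aa1 0.64, Hspe1 -0.62 and Hsph1 0.98. The interaction gave Hspa8 -0.70, Hsp90aa1 0.58, Hsp90ab1 -0.12 and Hsph1 1.30.

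Without single libraries, PNx against Control ranged from -0.85 to 0.14 for Hspa8, -0.37 to 0.57 for Hspb1 and -0.099 to 0.84 for Hspd1. PNx+NaKtide against PNx ranged from -0.30 to 0.70 for Hspa8, -0.71 to 0.33 for Hspb1, -0.61 to 0.32 for Hspd1 and -0.088 to 0.79 for Hspe1. NaKtide against Control ranged from -0.19 to 0.12 for Hspa1a, -0.018 to 0.30 for Hspa1b, -0.32 to 0.035 for Hspa8, -0.18 to 0.21 for Hsp90aa1 and -0.63 to 0.33 for Dnajb1. PNx+NaKtide against NaKtide ranged from -0.15 to 0.15 for Hspa1a, -0.21 to 0.16 for Hspa8, -0.13 to 0.10 for Hsp90ab1 and -0.26 to 0.56 for Dnajb1. The interaction ranged from -0.14 to 0.85 for Hspa8 and -0.86 to 0.11 for Hspe1.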

Other observations

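Hspb1 shares no exon bases with an opposite-strand gene, but its copy Hsp25-ps1, a processed pseudogene that shares 48.8% of its 50-base stretches, lies opposite Gm9817. Gm9817 had 236 to 298 CPM in Control, 53.5, 111 and 58.3 CPM in PNx replicates 1, 2 and 3, and 285, 283 and 403 CPM in the other PNx libraries. Its log2 difference between PNx and Control was -0.39 ± 0.41 (adjusted p = 0.533, edgeR). The same difference was -1.24 ± 0.60 for Gm20481 and -0.86 ± 0.42 for Gm26825 (adjusted p = 0.193 and 0.199, edgeR).

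The macrophage list, a cell type that the tissue also holds, summed to 319 to 447 CPM in Control, 304 to 534 in NaKtide, 169 to 535 in PNx and 339 to 590 in PNx+NaKtide. The testis germ cell list summed to 391, 313 and 384 CPM in PNx replicates 1, 2 and 3, to 430 CPM in PNx replicate 6 and to 656 CPM in NaKtide replicate 6, against 81.1 to 171 CPM in Control.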
